A study of Mus musculus with 2 samples.

Results

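Replication and mitosis genes are the genes whose transcripts accumulate as a cell copies its DNA and divides. The group was given as a list of 45 gene symbols, by a rule that uses no measured value, and 42 of them were among the 19465 genes counted in both sections. Rrm2, Ccnb1 and Cdc20 were not analysed here. The 42 measured members were ordered into 11 roles, from the licensing of replication origins to the segregation of chromosomes. A further 94 cell cycle genes were described beside them.

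The samples were 2 formalin-fixed, paraffin-embedded sections, each 5 µm thick, of mouse cerebellum holding a breast cancer brain metastasis (BCBM), labelled as biological replicates. Both carried the genotype label HP and the label NO treatment, and the slides were titled HP-F1 +cre for section 1 and HP-B6 +cre for section 2. HP organoids are cultures of mouse mammary tumors with a mutant human HER2 transgene behind a stop cassette that Cre removes, driven by an actin promoter, and mutant PIK3CA. They were injected directly into the cerebellum of syngeneic B6 mice, so the model leaves out the passage of cells through blood vessels, and there was no section of a cerebellum without a tumor. Transcripts were read with Visium CytAssist, which captures probes ligated on the tissue's RNA on an array of barcoded spots. Each spot covers more than a single cell as a rule, and often more than a single cell type.

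Each section was divided by a rule that used none of the members. Spots poor in 34 neural transcripts and lying together were tumor, the others were neural tissue, and spots within 2 array steps of the other side formed the tumor side and the neural side of the edge. Section 1 gave 645 spots of tumor interior, 109 and 115 spots on the tumor and neural sides of the edge, and 2445 neural spots. Section 2 gave 589, 239, 208 and 2917 such spots. The summed libraries held 2645282 to 34966014 unique molecular identifiers (UMIs, counted molecules), and the median spot held 57005 and 42238 UMIs in the tumor interior but 7710 and 9839 in neural tissue. Levels of single genes are counts per 1000000 UMIs after normalisation (normalised CPM), and those of summed lists, of distance from the border and of layers are without it (plain CPM). Because a spot or a summed region is bulk tissue, fewer cells of a type and less RNA per cell cannot be told apart.

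The tumors of the sections did not resemble each other in their markers. Summed transcripts of 14 epithelial markers took 13625 plain CPM in the tumor interior of section 2 but 112 in that of section 1, although all 14 were detected in both. The 9 fibroblast markers took 57454 plain CPM in section 1 and 690 in section 2. The label of a breast tumor was thus borne out by epithelial markers in section 2 and hardly in section 1, where the region is tumor only by the absence of neural transcripts. Values are therefore given for each section separately.

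A dividing cell first licenses its replication origins with the MCM helicase, then fires them and copies its DNA, and then builds a spindle that separates the chromosomes. The D cyclins start this course by relieving the RB protein's hold on E2F transcription factors, which switch on replication genes. Genes of mitosis are switched on later, by complexes with B-MYB (the product of Mybl2) and FOXM1. These complexes act through a promoter element called the cell cycle genes homology region (CHR) and through CCAAT boxes. In the adult cerebellum neurons no longer divide, whereas glial and immune cells can.

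The promoters of these genes were searched for the letters of E2F sites, of the CHR and of CCAAT boxes, which stood in some and not in others. To let the replication and mitosis genes be compared by eye, 7 promoters are printed, chosen after the motif counts were seen. RefSeq promoters, from 250 bases before to 50 bases after the start of a transcript in GRCm38.p6, were at hand for 33 of the 42 members. Mcm4, Gins2, Ccnd1, Ccnd2, Ccne2, Ccna2, Foxm1, Aurkb and Tpx2 had no entry. Capitals mark the CHR letters TTTGAA or TTCGAA, the CCAAT letters and the E2F letters TTTCCCGC, TTTCGCGC, TTTGCCGC or TTTGGCGC, each searched on both strands, so that CCAAT also appears as ATTGG. Overlapping matches run into one block, as do the E2F matches around TTTGGCGCGAAA in Mcm6. The Mki67 promoter (chr7:135716330-135716629, minus strand) held 2 CHR and 3 CCAAT matches and no E2F match. The Top2a promoter (chr11:99024140-99024439, minus strand) held 4 CHR and 6 CCAAT matches, and that of Ccnb2 (chr9:70421505-70421804, minus strand) held 2 and 3. In the Cdk1 promoter (chr10:69352863-69353162, minus strand) all 3 kinds were present, with 2 CHR, 3 CCAAT and 1 E2F match. The promoters of Mcm6 (chr1:128359656-128359955, minus strand) and Mcm3 (chr1:20820263-20820562, minus strand) held 3 and 2 E2F matches, 2 and 3 CCAAT matches and no CHR match. That of Ccne1 (chr7:38107441-38107740, minus strand) held none of these letters. The promoters of Birc5, Nusap1, Mybl2, Tyms and E2f1, not printed here, held none either. Unlike Ccne1, each of these genes was called higher in the tumor interior than in neural tissue.
Mki67: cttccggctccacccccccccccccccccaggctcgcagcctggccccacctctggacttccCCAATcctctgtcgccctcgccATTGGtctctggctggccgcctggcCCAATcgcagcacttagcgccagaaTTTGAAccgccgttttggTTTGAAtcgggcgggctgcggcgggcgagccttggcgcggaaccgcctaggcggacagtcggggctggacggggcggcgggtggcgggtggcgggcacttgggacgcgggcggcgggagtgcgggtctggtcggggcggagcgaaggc
Top2a: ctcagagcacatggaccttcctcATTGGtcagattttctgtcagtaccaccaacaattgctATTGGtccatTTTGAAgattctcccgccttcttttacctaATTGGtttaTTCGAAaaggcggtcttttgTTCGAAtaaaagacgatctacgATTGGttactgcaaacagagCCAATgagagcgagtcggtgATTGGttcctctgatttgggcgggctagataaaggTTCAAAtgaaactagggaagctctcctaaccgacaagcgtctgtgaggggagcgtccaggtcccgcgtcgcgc
Ccnb2: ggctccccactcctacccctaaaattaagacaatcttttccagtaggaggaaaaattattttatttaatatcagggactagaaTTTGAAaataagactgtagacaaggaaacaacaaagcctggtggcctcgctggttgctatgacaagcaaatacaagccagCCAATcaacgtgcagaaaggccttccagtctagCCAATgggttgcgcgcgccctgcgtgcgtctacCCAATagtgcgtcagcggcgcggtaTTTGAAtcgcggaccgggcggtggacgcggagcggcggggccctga
Cdk1: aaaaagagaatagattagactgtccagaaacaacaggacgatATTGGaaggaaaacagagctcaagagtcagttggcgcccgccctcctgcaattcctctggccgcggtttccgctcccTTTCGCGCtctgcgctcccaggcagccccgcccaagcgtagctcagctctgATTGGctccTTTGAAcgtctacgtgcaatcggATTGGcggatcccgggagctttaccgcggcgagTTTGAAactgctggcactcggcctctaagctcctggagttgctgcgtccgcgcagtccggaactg
Mcm6: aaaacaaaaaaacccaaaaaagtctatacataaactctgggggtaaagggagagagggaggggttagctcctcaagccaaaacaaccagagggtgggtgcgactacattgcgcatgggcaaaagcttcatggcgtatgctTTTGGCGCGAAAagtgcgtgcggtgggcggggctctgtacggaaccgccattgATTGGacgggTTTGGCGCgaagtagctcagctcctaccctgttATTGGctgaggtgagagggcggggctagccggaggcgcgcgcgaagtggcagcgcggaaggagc
Mcm3: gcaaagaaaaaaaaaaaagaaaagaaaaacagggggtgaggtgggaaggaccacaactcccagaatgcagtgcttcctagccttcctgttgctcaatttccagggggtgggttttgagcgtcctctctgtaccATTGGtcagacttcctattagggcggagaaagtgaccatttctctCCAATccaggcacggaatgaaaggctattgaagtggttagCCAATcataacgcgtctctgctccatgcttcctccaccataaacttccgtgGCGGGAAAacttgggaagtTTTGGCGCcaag
Ccne1: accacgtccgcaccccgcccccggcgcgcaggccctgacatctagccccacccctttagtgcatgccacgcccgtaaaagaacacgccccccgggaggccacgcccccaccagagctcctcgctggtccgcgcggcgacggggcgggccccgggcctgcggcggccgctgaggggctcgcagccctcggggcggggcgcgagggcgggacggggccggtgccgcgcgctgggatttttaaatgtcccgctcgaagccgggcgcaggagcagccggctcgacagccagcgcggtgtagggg

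Counted over all matched members, CHR letters stood in 44.4% of 36 promoters, against 19.2% of all 32851 promoters in the table and 16.5% of those of genes in the panel. The 12 promoters of mitosis members (kinases and checkpoint, centromere, spindle, anaphase promoting complex) held them in 75% of cases and the 14 of replication members (licensing, fork, nucleotide supply) in 21.4%. E2F letters stood in 50% of the replication promoters and in 0 of the 12 mitosis promoters, against 2.26% of all promoters. CCAAT letters were frequent in both, at 78.6% and 83.3%, against 37.4% of all promoters. A match is a run of letters, not a bound site, and a promoter without a match is not shown to lack a site. Neither the shares nor the relation of matches to levels was tested.

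Replication and mitosis genes were high throughout the tumor and low in neural tissue. Of the 42 members, 38 were higher in the tumor interior than in neural tissue and 0 were lower, at an adjusted p below 0.05 by edgeR's quasi-likelihood test with Benjamini-Hochberg adjustment over 19166 genes. Over all genes tested, 17.2% were called higher, 18.2% lower and 35.4% in either direction in this comparison. The median log2 fold change of the members was 2.37, against -0.15 for all genes, and 40 of the members were above neural tissue in both sections. Each section alone gave the same picture, with medians of 2.44 over the members in section 1 and 2.11 in section 2.

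The proliferation marker Mki67 had the largest rise of any member. It stood at 176 normalised CPM in the tumor interior, 145.0 on the tumor side of the edge, 71.7 on the neural side and 16.1 in neural tissue of section 1, and at 171, 174, 143 and 23.4 CPM in section 2. Both tumor interiors lay far above both neural libraries, a 9.04-fold rise (log2 fold change 3.18 ± 0.29, SE of the fit to 8 libraries from 2 sections, edgeR adjusted p = 0.00154). The neural libraries of every comparison include spots near the tumor, from 3 steps outside the border. Of their 421 and 807 Mki67 UMIs, only 85 and 306 lay more than 10 steps away, at 5.53 and 12.3 plain CPM. Top2a, the topoisomerase that untangles sister chromatids, fell from 106 to 103, 46.4 and 12.5 CPM across the same regions of section 1. In section 2 it stood at 85, 104, 82.3 and 15.1 CPM. It was 7.04-fold higher in tumor than in neural tissue (log2 fold change 2.82 ± 0.30, edgeR adjusted p = 0.00219).

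**Figure D1:**
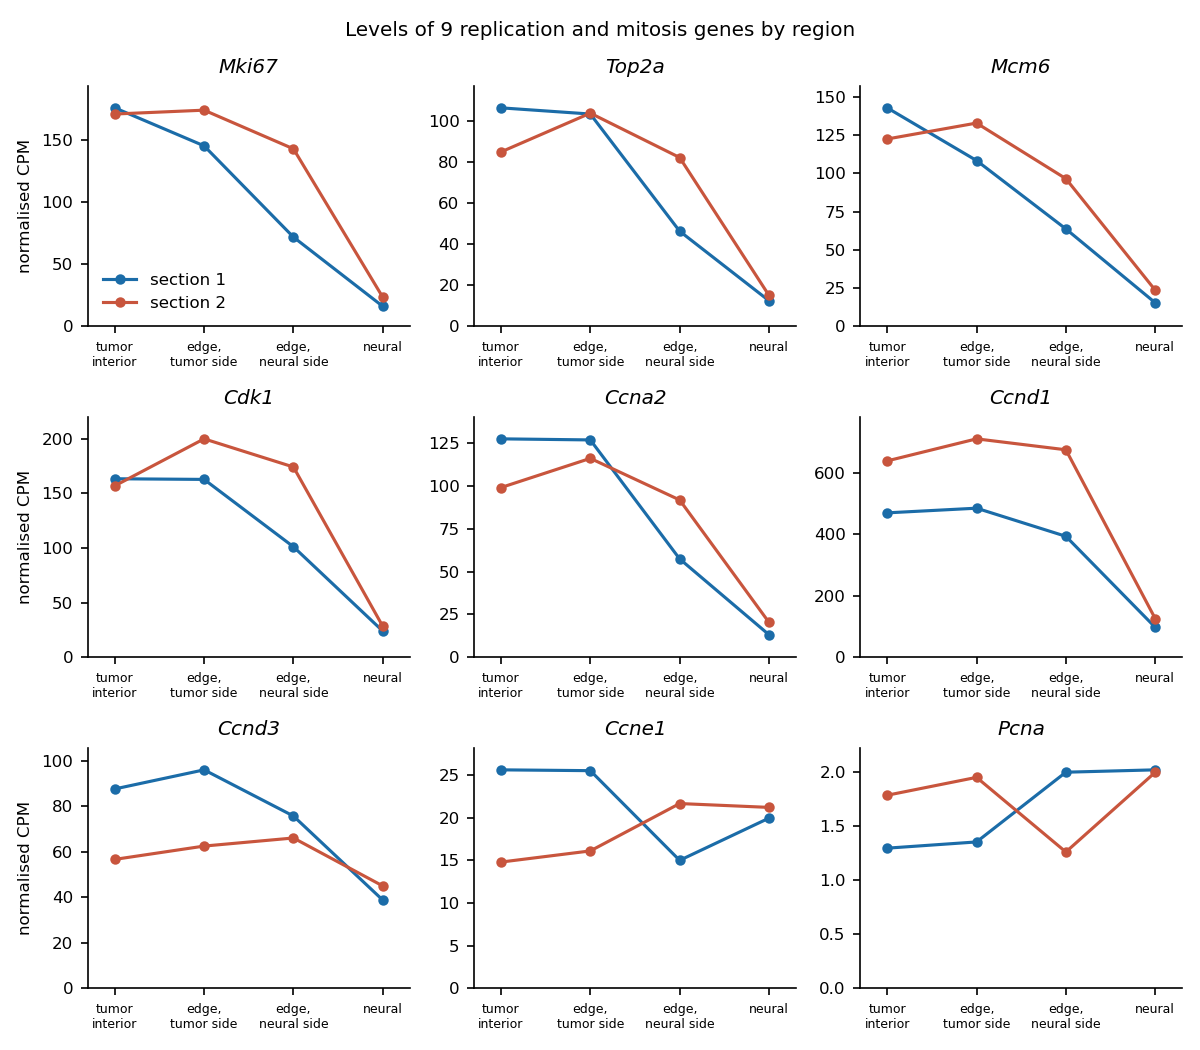
Normalised CPM (y axis, from 0) of 9 members in the 4 regions (x axis), with 1 point per region and a line per section. Mki67, Top2a, Mcm6, Cdk1, Ccna2 and Ccnd1 are high in the tumor and fall to neural tissue in both sections, with the neural side of the edge higher in section 2, whereas Ccne1 and Pcna show no such fall in both sections.

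All 8 licensing genes rose in the tumor, by 2.43-fold to 7.01-fold. Mcm6, a subunit of the MCM helicase, stood at 143 CPM in the tumor interior and 15.4 CPM in neural tissue of section 1, and at 123 and 23.7 CPM in section 2 (log2 fold change 2.81 ± 0.26, edgeR adjusted p = 0.00161). Mcm3, of the same helicase, went from 20.4 CPM in neural tissue to 119 CPM in tumor in section 1 but only from 20.8 to 69.3 CPM in section 2. Its tumor level in section 1 was thus above that of section 2 with nearly equal neural levels, and its rise was 4.46-fold (log2 fold change 2.16 ± 0.27, edgeR adjusted p = 0.00315).

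Of the 4 fork genes, Uhrf1, Gins2 and Cdc45 rose. Uhrf1, which carries DNA methylation onto the new strand, stood at 43.2 and 37.4 CPM in the tumor interiors and at 6.11 and 7.59 CPM in neural tissue (log2 fold change 2.57 ± 0.25, edgeR adjusted p = 0.00175). Gins2, part of the active helicase, stood at 41.5 and 29.9 CPM in tumor and 9.28 and 10.6 CPM in neural tissue (log2 fold change 1.84 ± 0.28, edgeR adjusted p = 0.00524). Pcna, the sliding clamp of the polymerase, was the exception, at 1.30 and 1.79 CPM in tumor and 2.02 and 2.00 CPM in neural tissue. Those levels rest on 43 and 39 UMIs in the whole tumor interiors, and the difference was not called (log2 fold change -0.40 ± 0.27, edgeR adjusted p = 0.281).

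Both measured genes of nucleotide supply rose. Rrm1, the large subunit of ribonucleotide reductase, stood at 98.8 and 77.9 CPM in the tumor interiors and 28.9 and 42.3 CPM in neural tissue (log2 fold change 1.34 ± 0.26, edgeR adjusted p = 0.0117). Tyms, which makes thymidylate, stood at 37.9 and 46.3 CPM in tumor against 9.31 and 9.71 CPM (log2 fold change 2.13 ± 0.23, edgeR adjusted p = 0.0022).

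Ccnd1 and Ccnd2 of the D cyclins rose, and Ccnd3 did not pass the test. Ccnd1 stood at 469.9, 485, 394 and 97.6 CPM from the tumor interior outward to neural tissue in section 1, and at 639, 711, 675 and 126 CPM in section 2. The neural side of the edge stayed close to the tumor level in both sections, and the tumor interior was 4.93-fold above neural tissue (log2 fold change 2.30 ± 0.20, edgeR adjusted p = 0.00145). Ccnd2 dropped more steeply, with 64.0, 57.4, 29.4 and 11 CPM in section 1 and 74.2, 63.4, 47.5 and 10.6 CPM in section 2 (log2 fold change 2.67 ± 0.23, edgeR adjusted p = 0.00149). Ccnd3 stood at 87.6 and 56.7 CPM in the tumor interiors against 38.8 and 45 CPM in neural tissue, and its log2 fold change of 0.74 ± 0.25 had an edgeR adjusted p of 0.0679. It was called with DESeq2 and at 1.5 times the neural threshold, but not under the other alternatives.

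Among the later cyclins and their kinases, Ccna2, Ccnb2, Cdk1 and Cdk2 rose and both E cyclins did not pass the test. Cdk1, the kinase that drives entry into mitosis, stood at 163 and 157 CPM in the tumor interiors and 24.0 and 28.4 CPM in neural tissue (log2 fold change 2.63 ± 0.24, edgeR adjusted p = 0.00158). Ccna2, a partner of CDK1 and CDK2, stood at 127 and 99 CPM in tumor and 13.2 and 20.4 CPM in neural tissue (log2 fold change 2.79 ± 0.33, edgeR adjusted p = 0.00274).

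Ccne1, a cyclin of the entry into S phase, was the 1 member whose direction between tumor and neural tissue differed between the sections. It stood at 25.6 CPM in tumor and 20.0 CPM in neural tissue of section 1, and at 14.8 and 21.2 CPM in section 2. The log2 fold change was -0.06 ± 0.37 (edgeR adjusted p = 0.907), and turned to 0.053 with DESeq2 and with its size factors. Ccne2, its close relative, stood at 22.2 and 27.6 CPM in tumor and 14.3 and 20.4 CPM in neural tissue, a log2 fold change of 0.54 ± 0.20 (edgeR adjusted p = 0.0844) that was called by DESeq2 (0.66, DESeq2 adjusted p = 0.00521) and by edgeR with DESeq2's size factors (adjusted p = 0.0495) but not under the other alternatives (edgeR adjusted p of 0.0767 to 0.399).

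All 3 cell cycle transcription factors rose. E2f1, which drives replication genes, stood at 48.0 CPM in the tumor interior of section 1 and 25.4 CPM in that of section 2, both above the neural 9.66 and 7.68 CPM (log2 fold change 2.03 ± 0.31, edgeR adjusted p = 0.00534). Mybl2, the gene of B-MYB, was at nearly equal levels in the tumors, 31.8 and 32.5 CPM, against 5.76 and 6.52 CPM in neural tissue (log2 fold change 2.40 ± 0.38, edgeR adjusted p = 0.00655). Foxm1 rose 3.72-fold.

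Every measured gene of the kinases and checkpoint (7), centromere (3), spindle (3) and anaphase promoting complex (1) rose, by 4.00-fold to 7.01-fold. Birc5, the survivin subunit of the Aurora B complex, stood at 53.7 and 74.7 CPM in the tumor interiors and 7.21 and 11.5 CPM in neural tissue (log2 fold change 2.81 ± 0.29, edgeR adjusted p = 0.00196). Plk1, a kinase of spindle assembly, stood at 42.5 and 26.7 CPM against 6.68 and 6.93 CPM (log2 fold change 2.34 ± 0.36, edgeR adjusted p = 0.00567). In both genes the lower tumor value was still more than the higher neural value.

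The centromere histone Cenpa stood at 45.2 and 51.2 CPM in tumor and 7.90 and 9.60 CPM in neural tissue (log2 fold change 2.47 ± 0.24, edgeR adjusted p = 0.00171). Cenpf, a kinetochore protein of dividing cells, stood at 38.0 and 41.0 CPM against 5.69 and 7.45 CPM (log2 fold change 2.62 ± 0.36, edgeR adjusted p = 0.00412). The tumors of the sections were close to each other in both genes. Of the spindle genes, Nusap1 stood at 66.5 and 57.9 CPM in tumor and 8.89 and 9.68 CPM in neural tissue (log2 fold change 2.75 ± 0.24, edgeR adjusted p = 0.00149), and Tpx2, which activates Aurora A, at 28.0 and 22.6 CPM against 4.12 and 4.03 CPM (log2 fold change 2.65 ± 0.36, edgeR adjusted p = 0.00385). Ube2c, the ubiquitin carrier of the anaphase promoting complex, stood at 14.0 and 12.6 CPM in tumor and 3.05 and 3.33 CPM in neural tissue (log2 fold change 2.07 ± 0.34, edgeR adjusted p = 0.00675).

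**Figure D2:**
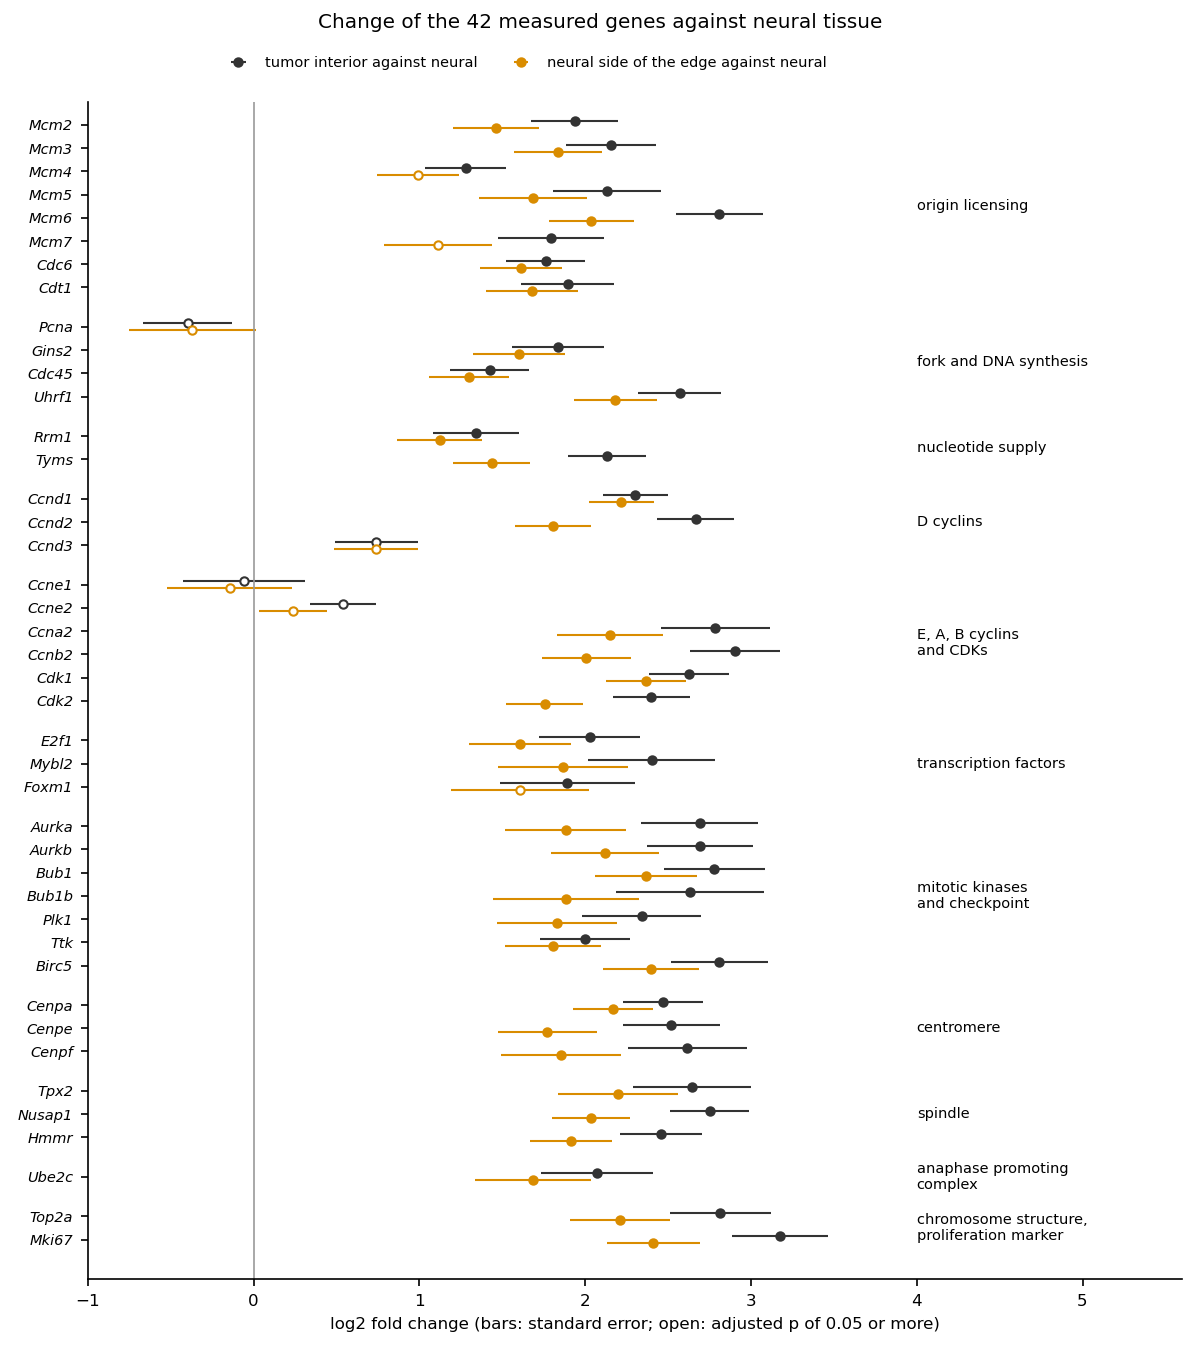
Log2 fold change with its standard error (x axis) of each of the 42 measured members, grouped by role (y axis), for the tumor interior and for the neural side of the edge against neural tissue, with open points where the adjusted p was not below 0.05. All but Pcna, Ccnd3, Ccne1 and Ccne2 are called in the tumor interior, and 35 of the 42 on the neural side, mostly at smaller changes.

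The tumors reached similar levels of these genes in spite of their different markers. The ratio of section 2 to section 1 in the tumor interior had a median of 0.861 over the 42 members and ranged from 0.518 for Mcm5 to 1.79 for Mcm7. It lay below 1 for 31 members, and for 0 members was the difference over 2-fold in either direction. Summed over 39 members without the D cyclins, the tumor interior held 1953 plain CPM in section 1 and 1530 in section 2, and neural tissue 438 and 468.

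Relative to replication members, mitosis members stood higher in the tumor of section 2, though both stood lower there than in section 1. In the tumor interior mitosis members took 406 plain CPM in section 1 and 354 in section 2, and replication members 751 and 531. The UMIs of 14 mitosis members divided by those of 14 replication members gave 0.540, 0.531, 0.443 and 0.393 from the tumor interior outward in section 1, and 0.667, 0.714, 0.668 and 0.387 in section 2. The ratio was nearly the same in both neural regions (0.403 and 0.453 when the threshold on neural transcripts was lowered) and above it in every tumor and edge region of either section. With 1 section of each there was no test between the sections.

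At the edge of the tumor the genes stayed high. Against neural tissue, 39 of the 42 members were higher at the edge (the mean of both of its sides) and 0 were lower by edgeR, where 13.7% of all genes were called higher, 14.4% lower and 28.1% in either direction. The members called were those of the tumor interior and Ccnd3 (log2 fold change 0.81 ± 0.22, edgeR adjusted p = 0.0459). The Ccnd3 call was lost without the block, with library size alone, at an edge of 3 steps, at the lowered threshold, with a tumor drawn by clustering and with both sides of the edge summed, at edgeR adjusted p values of 0.0576 to 0.127. The median log2 fold change was 2.08, against -0.08 for all genes, and Birc5 had the largest, 2.76 ± 0.27 (edgeR adjusted p = 0.00311). The comparisons with neural tissue share the neural libraries.

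No member was called between the tumor interior and the edge. The count was 0 of 42 in either direction by edgeR, where 0.0209% of all genes were called higher in the interior, 0.835% lower and 0.856% in either direction. Ccnd2 and Ccnb2 had an unadjusted p under 0.05, as had 2910 of all genes, and DESeq2 called 1 member, Ccnd2 (log2 fold change 0.59, DESeq2 adjusted p = 0.0464, against 0.115 to 0.729 under the other alternatives). Ccnb2, a cyclin of mitosis, stood at 73.3, 47.0 and 29.0 CPM in the tumor interior, tumor side and neural side of section 1, but at 69.0, 72.6 and 51.3 CPM in section 2, a log2 fold change of 0.60 ± 0.22 (edgeR adjusted p = 0.285).

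The sections went apart in this comparison. In section 1 the interior was above the edge for 41 of the 42 members, with a median log2 fold change of 0.51, and in section 2 for 16 members, with a median of -0.10. As many as 27 members had opposite signs in the sections. Foxm1, for example, stood at 25 CPM inside and 11.3 CPM on the neural side of the edge in section 1, and at 15.3 and 20.8 CPM in section 2. Plk1 stood at 42.5 and 18 CPM in section 1 and at 26.7 and 30.1 CPM in section 2. The edge here is the mean of its sides. In plain CPM summed over all members, its tumor side stood at 94.0% of the interior in section 1 and 120% in section 2. The neural side stood at 71.0% and 108%. Counts per section were not made over all genes, so they cannot be read as particular to the members.

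**Figure D3:**
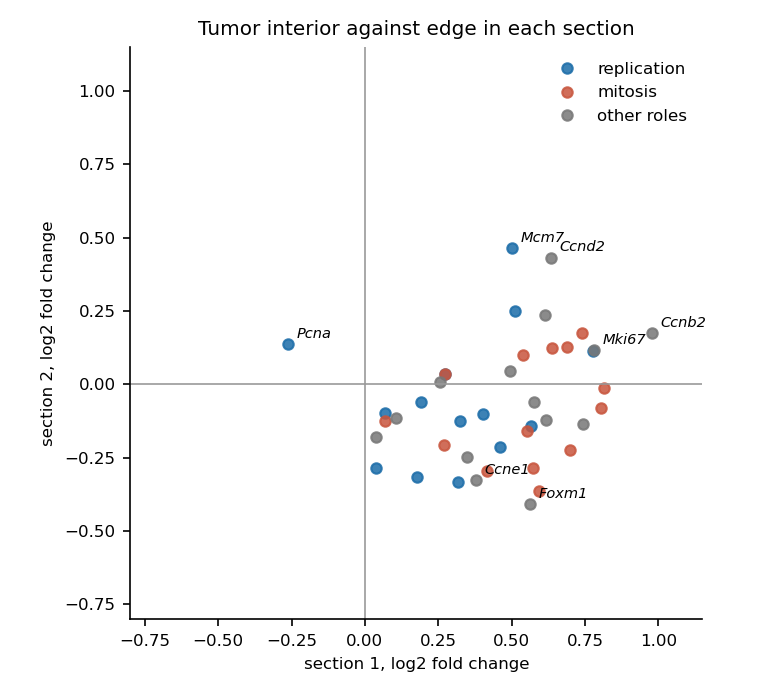
Log2 fold change of the tumor interior against the edge in section 1 (x axis) and in section 2 (y axis), 1 point per member, coloured as replication, mitosis or other roles. All members but Pcna lie to the right of 0, and 26 of the 42 lie below 0 on the y axis.

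Per UMI, spots on the neural side of the edge carried much of the tumor's level. Their mean share of neural transcripts was 0.627% and 0.590%, against 2.74% and 2.43% in neural tissue and 0.0631% and 0.0481% in the tumor interior. On this side of the edge 35 members were higher than in neural tissue and 0 were lower by edgeR, where 6.49% of all genes were called higher, 5.87% lower and 12.4% in either direction, with a median log2 fold change of 1.82 against -0.03 for all genes. Mcm4, Mcm7 and Foxm1 were called in the tumor but missed the threshold here. Their log2 fold changes were 0.99, 1.11 and 1.61, at edgeR adjusted p values of 0.056, 0.083 and 0.061. Mki67 was 5.32-fold above neural tissue (log2 fold change 2.41 ± 0.28, edgeR adjusted p = 0.0144) and Cdk1 5.15-fold (2.37 ± 0.24, edgeR adjusted p = 0.0139). The median member on the neural side reached 54.6% of its tumor interior level in section 1 and 98% in section 2, and 20 members in section 2 but only Pcna in section 1 were at or above it. The number of calls depends on the fit here, and was 20 without the section as a block and 23 with a tumor drawn by clustering. The shares of all genes called under these settings are not given, so the fall cannot be read as particular to the members.

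Followed outward spot by spot, the genes fell off more slowly than the markers most abundant in each tumor. In section 1 the 39 members without D cyclins held 81.1% of the interior level in the outermost tumor spots, 67.7% at 1 step outside and 57.9% at 2 steps. They then stayed between 50.7% and 57.9% from 3 to 6 steps outside, where fibroblast markers had dropped to between 2.25% and 9.28% of their interior level. Ccnd1 in the same spots was at 78.3% to 106% of its interior level, and the few transcripts of epithelial markers in section 1 at 49.9% to 69.5%. Those epithelial markers were still at 47.2% beyond 10 steps, where Ccnd1 was at 8.96%. Macrophage markers were at 227% of the interior level at 1 step and at 75.1% to 176% from 3 to 6 steps. Beyond 10 steps the members held 13.4%, with 345 plain CPM over all 42. These levels are shares of UMIs, and the UMIs per spot fell outward as well. By count, the 42 members averaged 138 UMIs per spot in the interior and 75.9 in the outermost tumor spots. They averaged 49.8 at 1 step outside and 21.0 to 26.3 from 3 to 6 steps.

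In section 2 the members were highest at the border in plain CPM, at 125% of the interior level in the outermost tumor spots and 108% in the first spots outside. From 3 to 6 steps they held 53.8% to 78.8%, where epithelial markers held 6.37% to 17.9% and macrophage markers 813% at 3 steps and 328% at 5 steps. Fibroblast markers, few in this tumor, ran nearer to the members, at 201% in the outermost tumor spots, 121% at 1 step and 34.7% to 60.2% from 3 to 6 steps. Beyond 10 steps the members held 21.8%. By count per spot there was no such peak in the outermost tumor spots. All members, D cyclins included, averaged 93.3 UMIs per spot in the interior and 106 at 2 steps inside the border. They averaged 90.2 in the outermost tumor spots and 65.8 at 1 step outside. Neural transcripts in this section took 9935 plain CPM at 3 steps and 14332 at 6 steps, against 24798 beyond 10 steps. Counting intervals for these shares were narrow, such as 122% to 128% for the outermost tumor spots, and cover counting error alone.

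**Figure D4:**
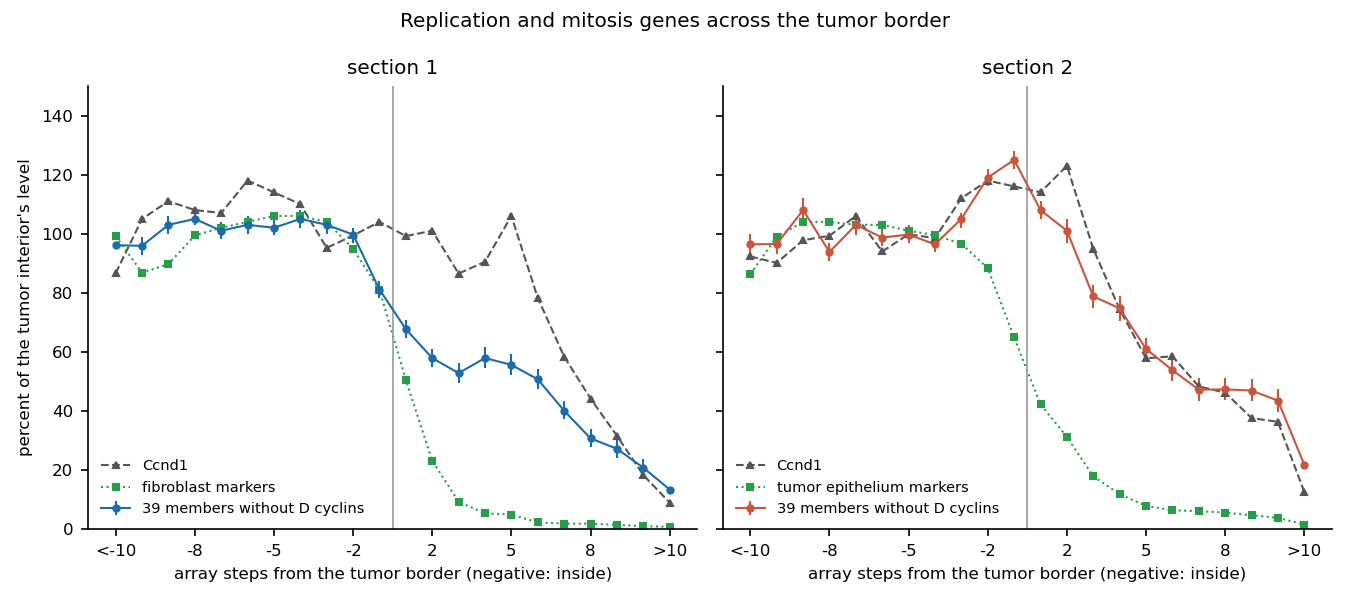
Level as a percent of the tumor interior (y axis) by array steps from the border (x axis, negative inside, grey line at the border) for 39 members without D cyclins with their 95% Poisson intervals, for Ccnd1 and for the markers most abundant in each tumor, fibroblast in section 1 and epithelial in section 2. In plain CPM, the members and Ccnd1 fall more slowly outside than the markers do in both sections. The members show a shelf at 3 to 6 steps in section 1 and a peak at the border in section 2.

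Other values also changed across the border or differed between the tumors. The median spot held 25302 UMIs at 1 step outside in section 1 and 12415.5 at 7 steps, and macrophage markers took 14113 and 15311 plain CPM on the neural side of the edge against 6378 and 1706 in the tumor interior. Microglia markers took 1542 and 1071 plain CPM there, against 1002 and 223 in the tumor and 736 and 753 in neural tissue. T cell markers took 313 plain CPM in the tumor of section 1 and 13.4 in that of section 2, and B and plasma cell markers 877 and 13.2. The part of each cell type in the members' levels was not tested.

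Within the tumor, single spots varied less in section 1. The level of the 39 members at the 90th percentile of spots was 1.53 times that at the 10th percentile in the interior of section 1 and 2.55 times in section 2, with means of 106 and 64.8 such UMIs per spot. Across 754 and 828 tumor spots, the summed members tracked no cell type closely. Their Spearman's rho with the UMIs per spot was 0.31 in section 1 and 0.05 in section 2, and the part of depth was not tested. Spearman's rho with the markers of 17 cell types and of the neural list lay between -0.19 (Purkinje cell) and 0.18 (T cell) in section 1. In section 2 it lay between -0.22, for the epithelial markers abundant in that tumor, and 0.27, for monocyte markers. The spots of a section share a library.

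Neural spots rich in a layer's markers differed in the level of these genes. In the 20% of neural spots with the most granule neuron markers, the 39 members stood at 514 and 383 plain CPM, in those with the most Purkinje cell markers at 484 and 360 plain CPM, and in those with the most oligodendrocyte markers at 294 and 294 plain CPM. Neural spots more than 10 steps from the tumor held 261 and 333 plain CPM. Ccne2 was at 34.7 and 37.7 plain CPM in the granule spots and 13.4 and 17.4 in the oligodendrocyte spots, with intervals that did not overlap in either section. Those of Mcm5, Tyms and Rrm1 did not overlap either, so this order was not particular to Ccne2, while those of E2f1 overlapped in both sections. Ccne1 did not share this order, at 18.3 and 11.1 plain CPM in the granule spots, 22.2 and 16.6 in the oligodendrocyte spots and 23.3 and 29 in the Purkinje cell spots. Some of these spots lie within 10 steps of the tumor, and there was no test across spots. The intervals cover counting error alone. How many of all genes separate in the same way was not counted, so the order cannot be read as particular to these genes.

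Most of the other cell cycle genes moved in the same direction. Of the 94, edgeR called 69 higher and 2 lower in the tumor interior than in neural tissue, 63 and 1 at the edge, and 39 and 0 on the neural side of the edge. Over all genes, the shares called higher and lower were 17.2% and 18.2%, 13.7% and 14.4%, and 6.49% and 5.87% in these comparisons. All 6 condensin genes, 22 of 24 genes of the kinetochore, spindle and cytokinesis, 21 of 31 origin and fork factors, 9 of 10 kinases and phosphatases of G1 and G2, 6 of 13 of the RB and E2F family, 2 of 3 nucleotide enzymes and 3 of 7 CDK inhibitors rose in the tumor. The largest rises were those of E2f2, Cdk6 and Cdkn2b. E2f2, a further E2F activator, stood at 11.6 and 82.5 CPM in the tumor interiors and 1.76 and 2.44 CPM in neural tissue (log2 fold change 3.89 ± 0.60, edgeR adjusted p = 0.00613). Cdk6, a kinase partner of the D cyclins, stood at 138 and 193 CPM in tumor and 9.58 and 15.2 CPM in neural tissue (log2 fold change 3.76 ± 0.17, edgeR adjusted p = 0.000932). The 2 that fell were Cdkn2d and Anln, the cytokinesis scaffold anillin, which stood at 60.8 and 50.7 CPM in tumor and 103 and 87.5 CPM in neural tissue (log2 fold change -0.77 ± 0.23, edgeR adjusted p = 0.0488, and 0.0155 to 0.100 under the alternatives).

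CDK inhibitors, which hold the cell cycle back, did not follow the members as a group. Cdkn1a (p21) stood at 78.3, 195, 263 and 105 CPM from the tumor interior outward in section 1 and at 64.3, 108, 180.1 and 63.8 CPM in section 2. It was highest on the neural side of the edge in both sections, above neural tissue there (log2 fold change 1.41 ± 0.19, edgeR adjusted p = 0.0164) and lower in the tumor interior than at the edge (-1.32 ± 0.18, edgeR adjusted p = 0.0482). Without the section in the model the neural side had an edgeR adjusted p of 0.117, and with a tumor drawn by clustering 0.057. The comparison of interior and edge lost its call when the section was dropped from the model, when the edge was widened, when the neural threshold was lowered, when the tumor was drawn by clustering and when both sides of the edge were summed, at edgeR adjusted p values of 0.0684 to 0.266. Between tumor interior and neural tissue its log2 fold change was -0.20 ± 0.19 (edgeR adjusted p = 0.425), and 0.086 with 1.5 times the neural threshold.

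Members of the INK4 family, inhibitors of CDK4 and CDK6, set the tumors apart. Cdkn2a stood at 4.62 CPM in the tumor interior of section 1 and 683 CPM in that of section 2, with 7.06 and 23.7 CPM in neural tissue, and was not called (log2 fold change 1.87 ± 1.42, edgeR adjusted p = 0.331). Cdkn2b stood at 33.0 and 266 CPM in tumor and 4.92 and 10.4 CPM in neural tissue (log2 fold change 3.62 ± 0.55, edgeR adjusted p = 0.00583). Cdkn2c went the other way, at 137 CPM in the tumor of section 1 and 32.3 CPM in that of section 2, against 12.9 and 14.3 CPM (log2 fold change 2.33 ± 0.58, edgeR adjusted p = 0.0286). The call was lost for Cdkn2b without the block (edgeR adjusted p = 0.0999), and for Cdkn2c at the lowered threshold and with both sides of the edge summed (0.063 and 0.0593). Each gene thus differed between the tumors by more than any member did.

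The remaining inhibitors differed by less. Cdkn2d stood at 41.1 and 26.4 CPM in tumor and 59.0 and 68.3 CPM in neural tissue (log2 fold change -0.96 ± 0.26, edgeR adjusted p = 0.0359), a call lost without the block, with DESeq2's size factors, with clusters and with both sides of the edge summed (0.0599 to 0.111). Cdkn1b (p27) stood at 69.0 and 123 CPM in tumor against 44.5 and 66.7 CPM (log2 fold change 0.76 ± 0.18, edgeR adjusted p = 0.0248), a call lost with library size alone and without the block (0.148 and 0.277). Cdkn1c stood at 6.76 and 6.65 CPM against 12.2 and 7.42 CPM and was not called (log2 fold change -0.52 ± 0.30, edgeR adjusted p = 0.218).

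**Figure D5:**
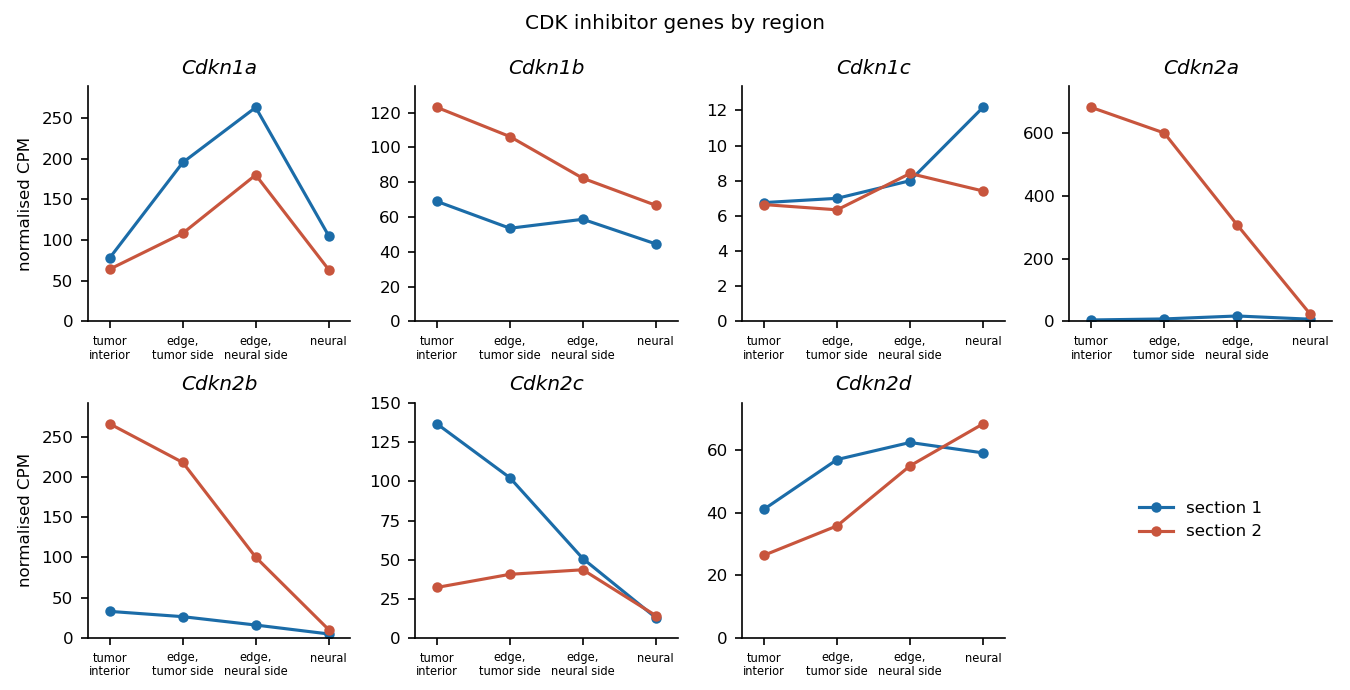
Normalised CPM (y axis, from 0) of the 7 CDK inhibitor genes in the 4 regions (x axis), with a line per section. Cdkn1a peaks on the neural side of the edge in both sections, at 263 and 180.1 CPM, and Cdkn2a and Cdkn2b are high in the tumor of section 2 and Cdkn2c in that of section 1.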

How the data were processed

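The deposited values were raw counts, unique molecular identifiers per gene and spot. Per the labels and the submitters' processing notes, the authors made them with Space Ranger 2.1.1 on mm10 from Visium CytAssist libraries of probes, which read only genes in the panel. The scale factors of the images were not used, and the study's clusters were not used here, since regions were drawn anew.

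The sections held 3406 and 4017 spots with 63986887 and 71878333 UMIs, and share array barcodes because the array design is the same. Spots under 500 UMIs or 10 genes (91 and 18) were left out. The share of 34 neural transcripts in a spot, averaged with its neighbours, was split at Otsu's threshold (0.384% and 0.365%). Connected low groups of at least 30 spots were tumor, other than a group of 45 spots in section 2 that was rich in choroid plexus markers (22.6% of its UMIs). In all 1 and 46 spots were left out at this step. The edge was everything within 2 array steps of the border.

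Spots were summed per section and region into 8 libraries. Regions of a section come from the same tissue, so edgeR 4.0.16 in R 4.3.3 fitted region with the section as a block (quasi-likelihood, TMM factors of 0.875 to 1.21, 3 residual degrees of freedom) over 19166 genes that passed its filter, and p-values were adjusted over all of them by Benjamini-Hochberg. The numbering of sections pairs libraries because regions of the same number share the section, and the block lowered the common dispersion from 0.186 to 0.0862. Standard errors were taken from the fold change and the F statistic of this fit, and are not a spread over the 2 sections. For Ccna2, with a standard error of 0.33, the sections alone gave 3.23 and 2.25 between tumor and neural tissue. The block does not account for the tumor that the interior and edge libraries of a section share. The fit was tested on simulated data of tumor against neural tissue. Of 100 genes changed by 2 on the log2 scale 47.0% were called, and of 99 changed by 1, 1.01%. The 8 false calls among 19065 genes were a larger share of the calls than the 0.05 aimed at, so the adjusted p may be too liberal. Far fewer genes changed there than the 6794 called in the data, which makes the adjustment harsher. These shares therefore do not give the power of the real test. Changes of 1 or 2 on the log2 scale can be missed, but how often was not measured. Other comparisons were not simulated. No test was run across spots. Intervals are exact Poisson intervals of 95% and cover counting error alone.

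The rule for the members uses no measured value, but the members and all gene lists were chosen with earlier results of these data known. Named in full were the 2 members of each role with the highest mean tumor CPM, the D cyclins, Mki67, Top2a, members whose change opposed that of their role or differed in sign between sections, all CDK inhibitors, and the 3 largest rises and up to 3 largest falls of the other cell cycle genes. Ccne2, Ccnb2, Foxm1, Mcm5 and Mcm7 were named after their values were seen. Alternatives were DESeq2 1.42.0, its size factors or library size alone in edgeR, no filter, no block, other edges, thresholds and spot minimums, a tumor drawn by k-means clustering (scikit-learn 1.9.0) and both sides of the edge summed.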

Additional observations from a re-analysis of the deposited data

How the results depend on the processing

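The count of members called between tumor and neural tissue stayed at 38 to 40 and that between the edge and neural tissue at 35 to 40 under the alternatives run, all of them higher. Without the section as a block they were 38 and 37. On the neural side of the edge the count of 35 became 20 without the replicate block and 23 with a tumor from k-means clusters, and otherwise lay between 30 and 38. Between tumor and edge it was 0 except with DESeq2, where it was 1. Shares of all genes called under each alternative are not given here, so shifts in these counts cannot be read as particular to the members. Counts have no value with a section left out, since no residual degrees of freedom remain. The changes whose sign turned under a processing alternative were none of them called, among the members against neural tissue, the named other genes and Ccnb2 and Ccnd2 against the edge: Ccne1 in tumor against neural tissue, to 0.053 with DESeq2 and to 0.053 with its size factors in edgeR; Pcna, to 0.049 at an edge of 1 step (edge against neural tissue) and to 0.017 on the neural side at the lowered threshold; and Cdkn1a in tumor against neural tissue, to 0.086 at the raised threshold. With a single section, signs also turned for Ccne1 (0.35 in section 1 in the tumor and 0.030 in section 2 on the neural side), Cdkn1a (0.011 in section 2 in the tumor) and Cdkn2a (-0.56 in section 1 in the tumor), none of them called. The summed members stood at 3.33 times neural tissue in the tumor of section 2, but at 2.54 times at the lowered threshold and 2.74 times without the 5 most abundant members. The tumor side of the edge stood at 3.87 times neural tissue in section 1, with 3.26 and 4.28 at edges of 1 and 3 steps, 3.72 at the raised threshold and 3.45 without those 5 members. In section 2 it stood at 3.99 times, with 3.60 and 4.16 at edges of 1 and 3 steps, 2.89 and 4.52 at the lowered and raised thresholds, 3.55 with clusters and 3.32 without the 5 members. The neural side in section 2 stood at 3.59 times, with 3.003 at the lowered threshold and 2.90 without the 5 members. The ratio of mitosis to replication members in neural tissue of section 2 was 0.387, and 0.400 with clusters, 0.417 at an edge of 1 step, 0.453 at the lowered threshold and 0.361 at the raised one. Scaling by library size alone moved the median of all genes to -0.46 between tumor and neural tissue, and to -0.29 at the edge. The limits are the number of sections, neural spots of low depth, and regions drawn without the study's own clusters. The cause of each shift was not tested.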

Other observations

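The 46 spots of section 2 that belonged to no region, nearly all of them rich in choroid plexus markers, held the members at 646 plain CPM (95% Poisson interval 581 to 717), against 661 in neural tissue of that section.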
